A study of Homo sapiens with 27 samples.

Results

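The nuclear-encoded respiratory chain genes are the genes of the cell nucleus that code for the structural subunits of the 5 protein complexes of oxidative phosphorylation. They were taken by symbol among protein-coding genes with a mean above 1 FPKM: NDUFA, NDUFB, NDUFC, NDUFS and NDUFV with a number, NDUFAB1, SDHA to SDHD, UQCR genes, CYC1, COX4 to COX8 genes and ATP5 genes, without the NDUFAF assembly factors. The rule found 81 members among the 34464 genes of the table and the 14611 genes tested. Of these, 37 belong to complex I (NADH dehydrogenase), 4 to complex II (succinate dehydrogenase), 9 to complex III (cytochrome bc1), 13 to complex IV (cytochrome c oxidase) and 18 to complex V (ATP synthase). NDUFA4, which was named as a complex I subunit and is now known as a subunit of complex IV, was counted with complex IV, as were COX7A2L and the testis isoform COX6B2. ATP5IF1, the inhibitor of ATP synthase, was counted with complex V.

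In respiration, electrons from NADH enter at complex I and electrons from succinate at complex II, pass through coenzyme Q, complex III and cytochrome c to oxygen at complex IV, and the proton gradient formed on the way drives ATP synthase. Complexes I, III, IV and V combine subunits encoded in the nucleus with subunits encoded in mitochondrial DNA, whereas all subunits of complex II come from the nucleus. Nuclear respiratory genes are mostly short, their mRNAs leave the nucleus through nuclear pores, and the proteins are imported into mitochondria. TPR is a filamentous protein of the nuclear pore basket, on the nuclear side of the pore.

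The cells were U2OS, a human osteosarcoma line, and all groups received a lentivirus: a control shRNA, or 1 of 2 that target TPR and are called 'TPR A' and 'TPR D', and cells were taken after 5 days. The 3 fractions of each culture (nuclear, cytoplasmic/ER by detergent, and total) were sequenced as poly(A)+ RNA, which for 3 cultures per shRNA makes 27 libraries. The comparison asks how the distribution of these mRNAs between nucleus and cytoplasm differs when TPR is depleted. The replicates are of 1 line. A p-value of the main limma fit measures the spread between the libraries of a group, and that fit did not pair the fractions of a culture. The line's markers VIM (854 to 2662 FPKM), SPARC (269 to 949) and CD44 (212 to 753) were present in every library, COL1A2 was at 0.0302 to 0.744, and the erythroid gene HBB was listed at 0 throughout. Mean TPR in the total fraction fell from 26.4 FPKM (control) to 4.17 (TPR A) and 4.66 (TPR D).

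FPKM, fragments per kilobase of transcript scaled to the size of the library, is a level per length within a library. A value is therefore relative to the other RNA of its fraction and not an amount per cell. Fewer cells holding an mRNA cannot be told apart from less of it in each cell. On 1 kb of transcript, 1 FPKM stood for 46.2 to 62.0 reads in nuclear, 32.5 to 48.9 in cytoplasmic/ER and 41.6 to 89.8 in total libraries, as estimated from the steps of the lowest values. The member with the fewest estimated reads was COX6B2 (48.1 in its lowest library), followed by NDUFA1 (231). One culture went against its labels. In the nuclear library labelled control replicate 2, 21.8% of the FPKM came from the mitochondrial genome, against 0.774% to 2.42% in the other 8 nuclear libraries. In the total library labelled control replicate 2 the share was 0.738%, against 15.8% to 24.7% in the other 8. Over all genes tested, the library labelled nuclear correlated on the log2 scale at 0.977 with the average total profile and at 0.944 with the average profile of its own fraction, itself left out. The library labelled total correlated at 0.973 with the average nuclear profile and at 0.940 with that of its own fraction, itself left out. Each of these libraries thus resembled the fraction of the other, and whether they were exchanged was not tested. No library was moved to another label, so the main fit took the library labelled nuclear as nuclear. Counts and medians that moved most when this culture was left out are also given without it.

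Sequences were drawn for the promoters, since genes of the respiratory chain are textbook targets of the transcription factors NRF1 and NRF2 (GABP, an ETS factor). RefSeq windows on GRCh38.p14, from 250 bases before to 50 after a start, were at hand for 67 of the 81 members (80 windows, since some genes have more than 1). The NRF1 letters GCATGCGC, read on both strands, were in 15 of these 80 windows (18.8%) and in 3.05% of all 35116 windows. The ETS letters CCGGAAG were in 22 of 80 (27.5%), against 10.3% of all windows, and the YY1 letters AAGATGGC in 13 of 80, against 2.89%. Overlaps between the 3 motifs were not removed, and a match is a description of letters and not of binding. The NRF1 letters were found in windows of 6 complex I genes, 2 complex II genes, no complex III gene, 2 complex IV genes and 4 complex V genes. Windows of 30 bases around the NRF1 letters, which are in capitals, are given 5′ to 3′ on the strand of the gene for 8 members named again in the results.
COX5B (chr2:97645915-97645944, plus strand, 136 bases before the start): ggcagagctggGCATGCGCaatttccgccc
COX6A1 (chr12:120437884-120437913, plus strand, 218 bases before the start): ggagggcacacGCATGCGCacgaaggaaac
NDUFB4 (chr3:120596166-120596195, plus strand, 159 bases before the start): aagagcacttcGCGCATGCgcatatcaccg
SDHB (chr1:17054214-17054243, minus strand, 200 bases before the start): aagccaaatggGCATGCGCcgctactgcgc
SDHD (chr11:112086752-112086781, plus strand, 110 bases before the start): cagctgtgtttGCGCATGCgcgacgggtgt
ATP5PF (chr21:25735156-25735185, minus strand, 120 bases before the start): ccactcaaagaGCGCATGCgtacagagcaa
NDUFA5 (chr7:123557958-123557987, minus strand, 158 bases before the start): gtatgcccatcGCGCATGCgtcaatttttc
ATP5MC2 (chr12:53676105-53676134, minus strand, 40 bases before the start): gcccgggtcacGCATGCGCtgagccttcct
In ATP5PF and NDUFA5 the capitals are the reverse complement, GCGCATGC. In NDUFB4 and SDHD the letters stand on both strands, overlapping, and the capitals mark the first of them.

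The members were abundant mRNAs. Their mean FPKM over the 27 libraries had a median of 205, and complex IV had the highest median (520), above complex V (323), complex III (225), complex I (145) and complex II (114). COX6B1, the subunit of complex IV on its intermembrane side, was the highest of all, and its group means ranged from 1347 ± 750 FPKM (SD, n = 3) in TPR D total to 3564 ± 185 in control cytoplasmic/ER libraries. COX7A2 (mean 1031) and ATP5MF (mean 918), a membrane subunit of ATP synthase, followed. In complex I the highest was NDUFB4 (mean 567), and in complex II SDHC (mean 297), a membrane anchor whose group means ranged from 193 ± 10.6 (TPR D total) to 395 ± 83.1 (TPR D cytoplasmic/ER). Together the members made up 2.12% to 2.95% of the FPKM outside the mitochondrial genome in nuclear, 2.56% to 2.98% in cytoplasmic/ER and 1.85% to 3.13% in total libraries. These shares overlapped between the fractions.

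Tissue isoforms were at the edge of the table. COX6B2, the member just inside the limit, had a mean of 1.45 FPKM, and the next member up was NDUFV3 at 17.0. Just outside was COX8C at 0.236, followed by ATP5MGL (0.109), COX4I2 (0.025), NDUFA4L2 (0.021), COX7B2 (0.018), COX7A1 (0.017) and COX6A2 (0.0074). COX4I2 is known as an isoform of lung, and COX7A1 and COX6A2 as isoforms of heart and muscle. Their ubiquitous counterparts were high: COX4I1 had a mean of 484 FPKM, COX6A1 of 629 and COX7A2 of 1031. NDUFA4 had a mean of 97.1. The readthrough genes NDUFC2-KCTD14 (10.2) and ATP5MF-PTCD1 (0.606) share exons with members and were not counted, so reads of NDUFC2 and ATP5MF may be split with them.

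In control cells most members were lower in the nuclear than in the cytoplasmic/ER fraction. The log2 N/C ratio, the nuclear minus the cytoplasmic/ER value of log2(FPKM + 0.1) after scaling, had a median of -0.97 over the 81 members and -0.01 over all genes tested. In limma, with a Benjamini-Hochberg adjusted p under 0.05 over all genes, 52 members were lower in the nucleus and 1 was higher, against 19.2% of all genes lower and 20.2% higher. Without control replicate 2 the median was -0.75, and 26 members were called lower, each of them among the 52, and 2 higher. The shares of all genes above are from the fit with all libraries and do not match these counts. Of the members called lower, 24 of 37 belonged to complex I, 1 of 4 to complex II, 6 of 9 to complex III, 9 of 13 to complex IV and 12 of 18 to complex V. The members' median was below that of the mRNAs tested in each of the 3 control cultures, at -0.71, -1.26 and -0.78 against 0.04, -0.01 and 0.03. The lowest, -1.26, was that of replicate 2.

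**Figure D1:**
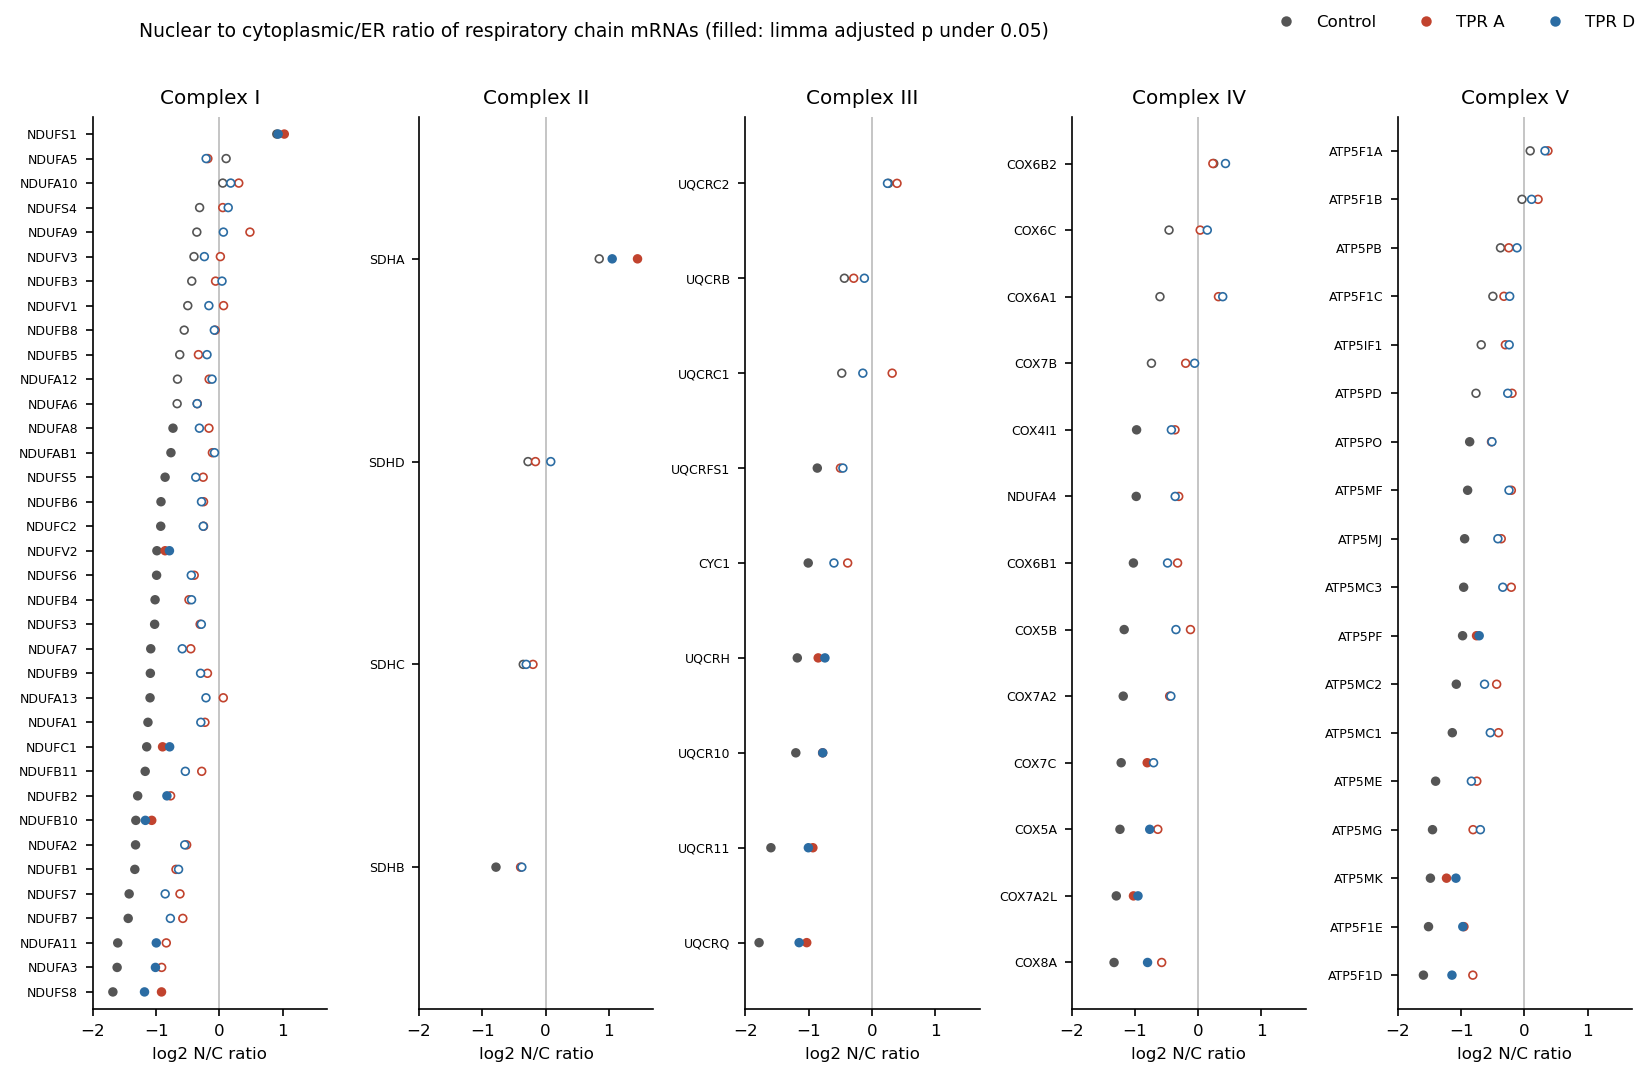
Log2 N/C ratio (x axis) of 80 of the 81 members (y axis) in control (grey), TPR A (red) and TPR D (blue) cells, 1 panel per complex, with members sorted by the ratio in control cells. Filled points passed an adjusted p of 0.05 in limma: 53 in control, 15 in TPR A and 20 in TPR D cells, and most coloured points lie to the right of the grey ones, a shift that passed the test for no member.

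The lowest N/C ratios belonged to small subunits and to a few core ones. UQCRQ, a small subunit of complex III (chr5:132202322-132204539 on GRCh37), had the lowest of all. Its nuclear FPKM in control cells were 319, 318 and 285 and its cytoplasmic/ER FPKM 1026, 1251 and 988, so that the fractions did not overlap. The log2 N/C ratio was -1.78 ± 0.31 (SE, adjusted p = 0.000167). NDUFS8, an iron-sulphur subunit of the complex I core, was at 402, 219 and 354 in the nuclear and 990, 1050 and 1071 in the cytoplasmic/ER libraries. These fractions also did not overlap, and the N/C ratio was -1.68 ± 0.32 (adjusted p = 0.000304). COX7A2L, which takes part in supercomplexes of complexes III and IV, had 144, 145 and 129 in the nuclear and 331, 370 and 349 in the cytoplasmic/ER libraries. Its ratio of -1.29 ± 0.21 had the lowest adjusted p of the members (9.03e-05), and the control replicate 2 culture did not stand apart for it. COX8A, a single-helix subunit of complex IV, had an N/C ratio of -1.33 ± 0.27. ATP5F1D, the delta subunit of the ATP synthase head, had one of -1.59 ± 0.32. Without control replicate 2 the ratios were -1.71 for UQCRQ, -1.42 for NDUFS8, -1.16 for COX8A and -1.32 for ATP5F1D. UQCRQ was then still the lowest of all. The lowest of complexes I, IV and V were then NDUFA3 (-1.49), COX7A2L (-1.28) and ATP5MK (-1.51).

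NDUFS1 was the exception in the other direction. It codes for the largest subunit of complex I, a core iron-sulphur protein, and lies at chr2:206979541-207024233 on GRCh37. Its nuclear FPKM in control cells were 68.0, 44.4 and 71.9, and its cytoplasmic/ER FPKM 34.0, 27.8 and 37.4. The nuclear values were all higher, and the N/C ratio of 0.91 ± 0.20 passed the test (adjusted p = 0.00143). SDHA, the flavoprotein of complex II, had 109, 50.6 and 122 in the nuclear and 49.5, 48.8 and 51.5 in the cytoplasmic/ER libraries. The nuclear value of replicate 2 lay close to the cytoplasmic ones, and the ratio of 0.85 ± 0.36 missed the threshold (adjusted p = 0.0633), but without that culture it was 1.22 (adjusted p = 0.00325). SDHA has near-identical pseudogene copies, so its level is uncertain where reads were shared between them. The highest ratios of the other complexes did not pass the test: 0.26 ± 0.22 (SE, adjusted p = 0.371) for UQCRC2, a core protein of complex III, 0.25 ± 0.34 (adjusted p = 0.585) for COX6B2 and 0.09 ± 0.23 (adjusted p = 0.774) for ATP5F1A, the catalytic head's alpha subunit.

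By role, the catalytic and the accessory parts of a complex did not form separate blocks. Of the 7 core subunits of complex I encoded in the nucleus, 4 were lower in the nucleus, among them NDUFS8 (-1.68) and NDUFV2 (-0.99), and 1 was higher (NDUFS1). Of the 30 accessory subunits, 20 were lower. Leaving out control replicate 2, 3 core and 8 accessory subunits were lower. The share of 19.2% of all genes is from the fit with all libraries, and the share that matches these counts is not given here. In ATP synthase, the alpha, beta and gamma subunits of the head (ATP5F1A at 0.09, ATP5F1B at -0.04 and ATP5F1C at -0.50) did not pass, while the small delta and epsilon subunits (ATP5F1D and ATP5F1E, -1.51) did. All 3 genes of the c subunit, which forms the rotor ring, were lower in the nucleus, with a median of -1.08, and so were all 5 small membrane subunits ATP5ME, ATP5MF, ATP5MG, ATP5MJ and ATP5MK, with a median of -1.40. Without control replicate 2, none of the c subunit genes and 3 of the 5 small membrane subunits passed. Of the 4 peripheral stalk genes, ATP5PF and ATP5PO were lower and ATP5PB and ATP5PD did not pass, and 1 was lower when control replicate 2 was left out. The roles were grouped after the values were known.

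In TPR-depleted cells fewer members passed the same test. With TPR A the members' median N/C ratio was -0.32, and 13 were lower and 2 higher in the nucleus, against 13.2% of all genes lower and 15.2% higher. With TPR D the median was -0.36, and 18 were lower and 2 higher, against 14.6% and 17.1%. These counts moved with single cultures: both directions together came to 9, 4 and 3 without TPR A replicate 1, 2 and 3, and to 6 and 3 without TPR D replicate 2 and 3. The same 12 members were lower in all 3 sets of cells: ATP5F1E, ATP5MK, ATP5PF, COX7A2L, NDUFB10, NDUFC1, NDUFS8, NDUFV2, UQCR10, UQCR11, UQCRH and UQCRQ. In control cells alone, 33 were lower, among them the 3 c subunit genes, COX4I1, COX5B and COX6B1. This count rested on control replicate 2: in the fit without that culture it was 6 (ATP5ME, ATP5MG, COX7A2, NDUFA2, NDUFB1 and NDUFB7). With the TPR calls of the fit with all libraries it was 7, NDUFS7 included. The 3 c subunit genes, COX4I1, COX5B and COX6B1 lost their call in control cells without that culture. No member was lower with a TPR shRNA and not in control cells. Passing in one set of cells and not in another is not a difference between them, and the test of that difference follows. NDUFS1 was higher in the nucleus in all 3 (1.03 ± 0.20 with TPR A, 0.93 ± 0.20 with TPR D), and SDHA in both TPR-depleted sets (1.45 ± 0.36, adjusted p = 0.00422, and 1.05 ± 0.36, adjusted p = 0.0276).

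The N/C change is the N/C ratio in TPR-depleted minus that in control cells. It was above 0 for 79 of 81 members with TPR A and for 79 of 81 with TPR D. Among pre-mRNAs under 10 kb it was above 0 for 47 (TPR A) and 48 (TPR D) of 48 members. For 3241 other mRNAs of that length it was above 0 in 78.0% and 73.0%. Over the members it had a median of 0.57 (TPR A) and 0.48 (TPR D), against 0.00 and -0.01 over the mRNAs tested. For no member did limma call it: 0% of all genes tested were called with TPR A, with TPR D or with both shRNAs together, or for the difference between the shRNAs. On simulated data the test with TPR A called 8 of 100 genes given a log2 change of 1. It could thus seldom call changes of the members' size, and the lack of calls does not show that they were unchanged. At an unadjusted p under 0.05 there were no members with either shRNA alone and 3 with both together, and the lowest adjusted p over the members was 0.987 with TPR A. Leaving out control replicate 2, the medians were 0.38 (79 above 0) and 0.29 (72 above 0). The 2 shRNAs share the control libraries, so these are not independent counts. The median difference between TPR A and TPR D was 0.05.

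By complex, the median change with TPR A and TPR D was 0.59 and 0.50 for complex I, 0.27 and 0.28 for complex II, 0.42 and 0.41 for complex III, 0.61 and 0.55 for complex IV and 0.56 and 0.45 for complex V. Leaving out control replicate 2, they were 0.38 and 0.27 for complex I, 0.13 and 0.090 for complex II, 0.32 and 0.30 for complex III, 0.45 and 0.43 for complex IV and 0.36 and 0.28 for complex V. The complexes were not tested against each other. The members below 0 were few: NDUFA5, an accessory subunit of complex I, with both shRNAs (-0.29 and -0.32), COX6B2 with TPR A (-0.01) and UQCRC2 with TPR D (-0.02). In the fit without control replicate 2, 2 members (TPR A) and 9 members (TPR D) were below 0.

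Across single cultures, the members' median N/C ratio was -0.71, -1.26 and -0.78 in control cells, -0.13, -0.38 and -0.56 with TPR A and -0.14, -0.49 and -0.56 with TPR D. The 6 TPR-depleted cultures lay above the 3 control cultures, with and without replicate 2, and cultures of the same replicate number had close values for TPR A and TPR D. Within each replicate number the TPR-depleted cultures were also above the control culture. In the medians of complexes I, IV and V the groups did not overlap either. In complex III, control replicate 1 (-0.78) and 3 (-0.86) lay above TPR A replicate 3 (-0.95), and in complex II the groups overlapped. For single members, each of the 6 TPR-depleted cultures was above each of the 3 control cultures in 28 of 81 (34.6%), against 3.07% of all genes, and none was below all of them. Against control cultures 1 and 3 alone the count was again 28, with 4.09% of all genes above. The 28 comprised 13 genes of complex I, SDHB of complex II, 3 genes of complex III, 6 of complex IV and 5 of complex V. These counts were chosen after the values were seen.

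**Figure D2:**
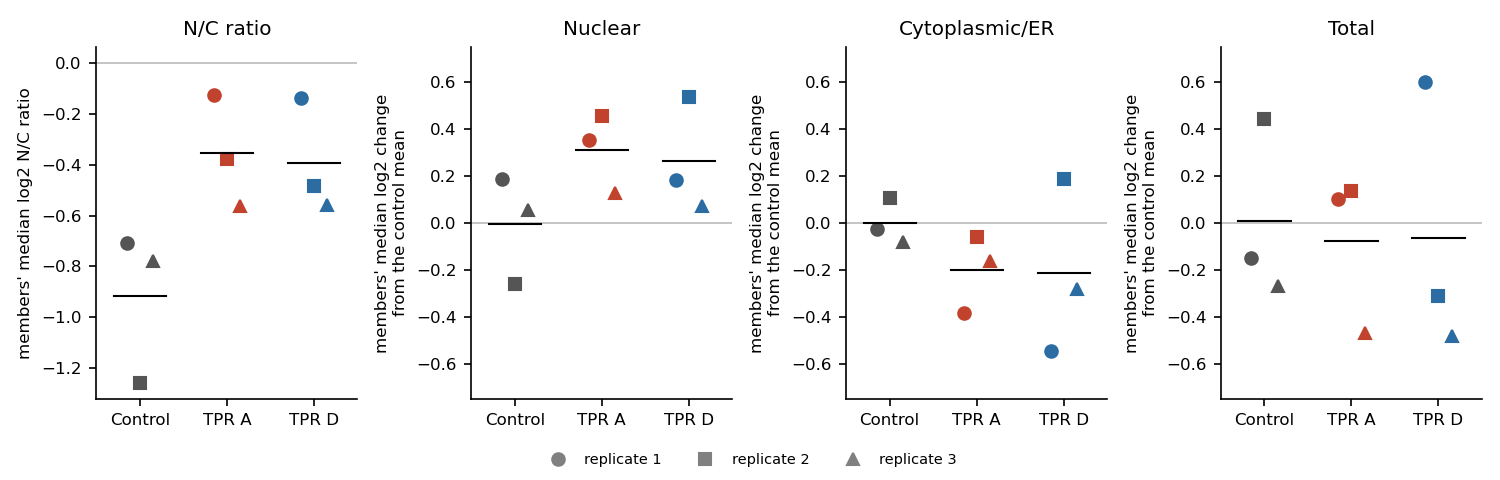
Members' median log2 N/C ratio in each culture (left) and members' median log2 change from the mean of the control cultures in nuclear, cytoplasmic/ER and total libraries (y axes, log2), by shRNA (x axis). Each point is a culture, marker shapes give the replicate number and lines the mean of 3. The TPR-depleted cultures lie from -0.56 to -0.13 and the control cultures from -1.26 to -0.71 in the left panel, while the groups overlap in the total fraction.

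The 6 members with the lowest p for the change with both shRNAs together are given as values, since none passed the adjusted test (adjusted p = 0.999 for each). COX7A2 (chr6:75947391-75960039 on GRCh37), a small subunit of complex IV, had nuclear FPKM of 788, 662 and 738 in control, 966, 1134 and 805 in TPR A and 872, 1358 and 825 in TPR D cells. Its cytoplasmic/ER FPKM were 1597, 1898 and 1605, then 1099, 1390 and 1499, then 1083, 1758 and 1313. The nuclear values of the TPR-depleted cells were all above those of control cells, whereas the cytoplasmic values overlapped through TPR D replicate 2. The N/C change with both shRNAs was 0.74 ± 0.35 (SE), and 0.60 from the cultures' means without control replicate 2.

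NDUFA2 (chr5:140018325-140027356) is a small accessory subunit of complex I. Its nuclear FPKM were 50.2, 31.7 and 46.2 in control, 63.1, 60.3 and 46.0 in TPR A and 50.5, 66.3 and 47.0 in TPR D cells. Its cytoplasmic/ER FPKM were 115, 109 and 99.8, then 68.5, 85.4 and 89.7, then 61.6, 109 and 76.4. Nuclear values overlapped between control and TPR-depleted cells, and the change was 0.79 ± 0.38, or 0.59 without control replicate 2. NDUFA1 (chrX:119005795-119010625), an accessory subunit with a membrane helix, had nuclear FPKM of 56, 34.5 and 51.9, then 75.8, 81.9 and 61, then 58.1, 86.1 and 49.3. Its cytoplasmic/ER FPKM were 103, 123 and 89.9, then 74.9, 85.7 and 96.8, then 60.1, 99.6 and 79.3. All 3 TPR A nuclear libraries were above all 3 control ones, TPR D replicate 3 was not, and the change was 0.87 ± 0.41, or 0.54 without control replicate 2.

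COX6A1 (chr12:120875893-120878540), the ubiquitous isoform of subunit VIa, had nuclear FPKM of 793, 340 and 635 in control, 773, 928 and 703 in TPR A and 806, 1094 and 683 in TPR D cells. Its cytoplasmic/ER FPKM were 834, 840 and 924, then 457, 789 and 732, then 445, 1013 and 622. The control nuclear library of replicate 2 was the lowest of the nuclear ones, and the change fell from 0.96 ± 0.46 to 0.63 without that culture. Its N/C ratio in TPR-depleted cells was above 0 on average, at 0.32 ± 0.42 (TPR A) and 0.39 ± 0.41 (TPR D; SD, n = 3), against -0.60 ± 0.61 in control cells. NDUFB9 (chr8:125551342-125592889), an accessory subunit of complex I, had N/C ratios of -0.67, -1.55 and -1.05 in control, 0.23, -0.20 and -0.60 in TPR A and 0.11, -0.42 and -0.59 in TPR D cultures. COX5B (chr2:98262525-98264846), a subunit of complex IV that binds zinc, had -0.78, -1.95 and -0.78, then 0.16, -0.16 and -0.36, then 0.04, -0.60 and -0.49. In both genes the groups did not overlap, and the changes were 0.85 ± 0.41 and 0.93 ± 0.47. For COX5B the control culture of replicate 2 stood far below the other 2, and without it the change was 0.54, and 0.62 for NDUFB9.

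**Figure D3:**
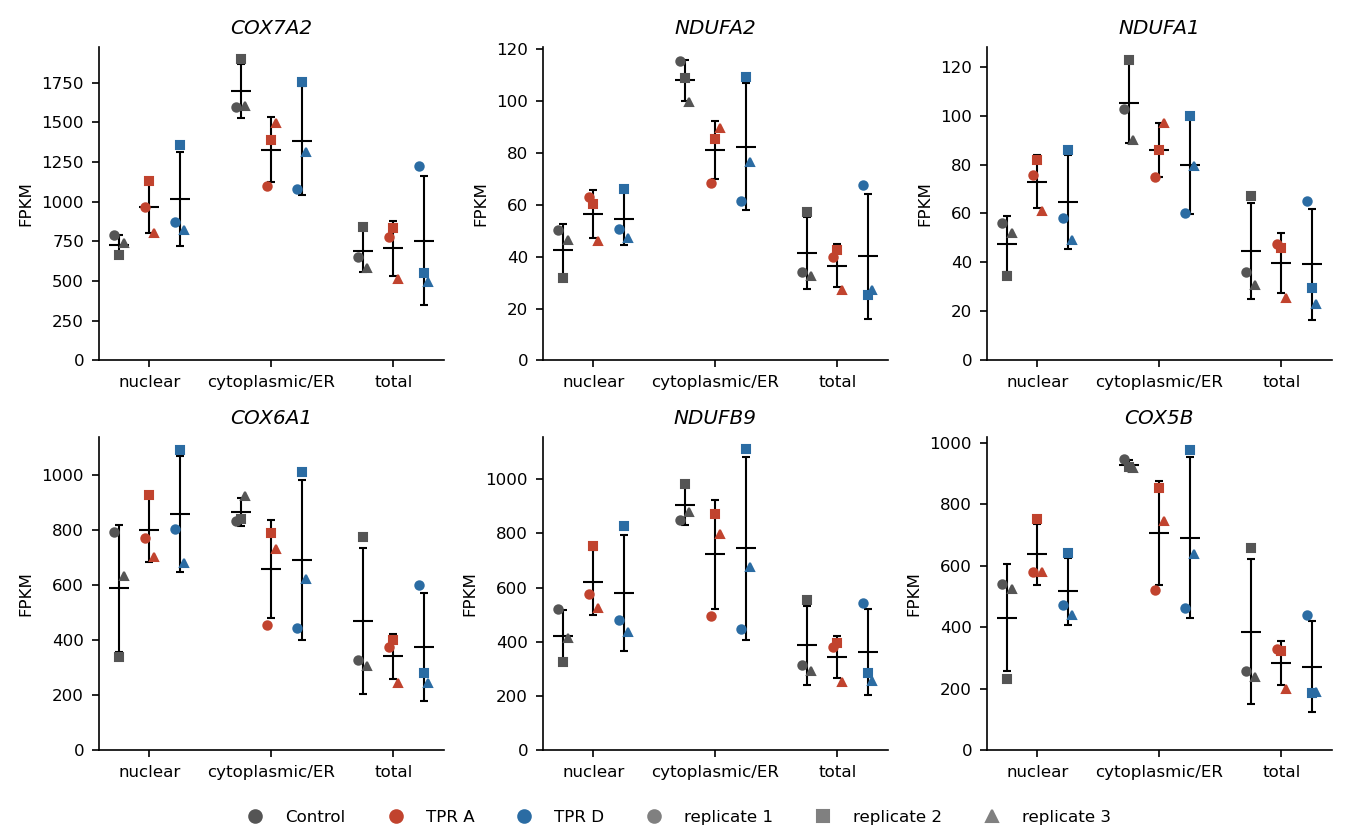
FPKM (y axes, from 0) of the 6 members with the lowest p for the N/C change, by fraction (x axis) and shRNA (colour). Each point is a library, marker shapes give the replicate number and bars the mean and SD of 3 libraries. COX7A2 shows the separation of nuclear values (at most 788 in control, at least 805 in TPR-depleted cells), and in the other 5 genes some control and TPR-depleted nuclear values overlap.

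Both fractions entered the change. In the nuclear fraction, 75 of 81 members were above control on average with TPR A and 75 with TPR D, with median changes of 0.31 and 0.26. In the cytoplasmic/ER fraction, 7 and 9 members were above control, with medians of -0.22 and -0.22. In the main fit no member passed the test in either fraction, where 0.903% and 0.479% of all genes were called in the nuclear and 0.623% and 0.575% in the cytoplasmic/ER fraction. Unadjusted p-values fell under 0.05 for 0 and 0 members in the nuclear and for 2 and 3 in the cytoplasmic/ER fraction. Single cultures did not all follow: with TPR A, the cultures' median nuclear changes were 0.35, 0.46 and 0.13 and the cytoplasmic ones -0.39, -0.061 and -0.16, but with TPR D the cytoplasmic ones were -0.54, 0.19 and -0.28. TPR D replicate 2 was thus above control in the cytoplasm, and its nuclear value (0.54) was the highest of the 6. Without control replicate 2 the nuclear medians were 0.20 and 0.13 and the cytoplasmic ones -0.14 and -0.17.

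The lowest p in the cytoplasmic/ER fraction with TPR A belonged to ATP5MC1, 1 of 3 genes for the c subunit. Its cytoplasmic/ER FPKM were 1004, 886 and 782 in control, 412, 504 and 332 in TPR A and 447, 1064 and 521 in TPR D cells. The TPR A libraries were all below the control ones, and the change of -1.08 ± 0.34 did not pass in the main fit (adjusted p = 0.157). It passed in the alternative fit with replicate number as a block. With TPR D the lowest p was that of SDHD, a membrane anchor of complex II, whose 113, 151 and 108 FPKM in control compared with 76.1, 59.9 and 85.5 in TPR D cells. The groups did not overlap, and the change of -0.72 did not pass (adjusted p = 0.123).

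The 3 c subunit genes ATP5MC1, ATP5MC2 and ATP5MC3 code for the same mature protein with different import signals, so their shares show which gene supplied its mRNA. In the cytoplasmic/ER fraction ATP5MC1 made up 41.8% ± 3.67 (SD, n = 3) of their summed FPKM in control, 28.5% ± 5.44 in TPR A and 37.4% ± 3.32 in TPR D cells. ATP5MC3 made up 24.7% ± 2.76, 32.2% ± 0.710 and 27.5% ± 0.393. The TPR A cultures lay below the control cultures for ATP5MC1 in the nuclear (22.4% to 35.4% against 37.4% to 41.6%), the cytoplasmic/ER (24.6% to 34.7% against 39.2% to 46.0%) and the total fraction (24.0% to 35.3% against 35.6% to 41.7%). They lay above them for ATP5MC3 in all 3 fractions, and ATP5MC2 overlapped in all 3. With TPR D the shares of ATP5MC1 overlapped control in each fraction, whereas those of ATP5MC3 lay above control in the cytoplasmic/ER (27.2% to 27.9% against at most 27.1%) and total fractions (30.6% to 33.3% against at most 28.4%). The N/C ratios of the 3 genes were -1.14, -1.08 and -0.96 in control, -0.41, -0.44 and -0.21 in TPR A and -0.54, -0.63 and -0.34 in TPR D cells. The smallest p that 3 against 3 cultures allow is 0.1 in an exact permutation test, so no p is given for the shares.

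**Figure D4:**
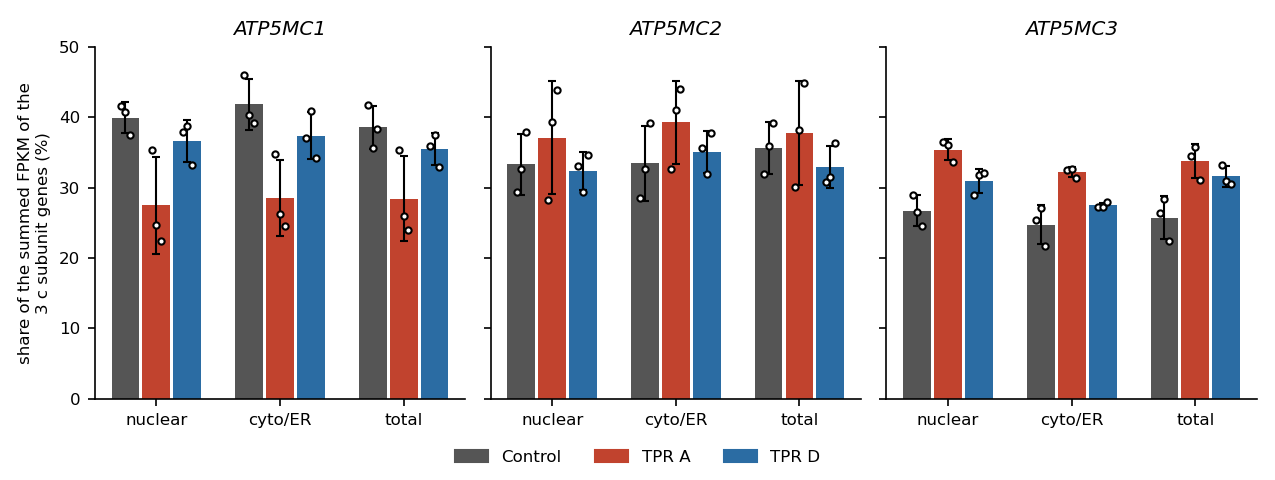
Share (%) of the summed FPKM of the 3 c subunit genes taken by each (y axis, from 0), by fraction (x axis) and shRNA (colour). Bars are the mean and error bars the SD of 3 cultures, which are drawn as open points. The bars of TPR A for ATP5MC1 (27.5% to 28.5%) are below those of control (38.6% to 41.8%) in each fraction.

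In the total fraction the members did not move in one direction. Its median over the members was -0.096 for TPR A, with 31 of 81 above 0, and -0.086 with TPR D, with 30 above 0, and no member passed, against 0.821% and 0.753% of all genes (1 and 4 members at an unadjusted p under 0.05). Control replicate 2, whose total library went against its label, set the sign: without it the medians were 0.13 and 0.12. The cultures' medians were -0.15, 0.44 and -0.27 in control, 0.10, 0.14 and -0.47 in TPR A and 0.60, -0.31 and -0.48 in TPR D cells, so the groups overlapped throughout. The lowest p belonged to ATP5MC1 with TPR A (-0.76, adjusted p = 0.348) and to SDHD with TPR D.

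Complex II is the only complex with no subunit from mitochondrial DNA, and its 4 genes differed widely in where their mRNA stood. The mean N/C ratios over 3 control cultures were 0.85 ± 0.65 for SDHA, -0.78 ± 0.30 for the iron-sulphur subunit SDHB, -0.35 ± 0.17 for SDHC and -0.28 ± 0.15 for SDHD (SD). SDHB alone passed the test (adjusted p = 0.0141), and it lost it without control replicate 2 (-0.61, adjusted p = 0.106). With TPR A they were 1.45 ± 0.44, -0.40 ± 0.18, -0.20 ± 0.09 and -0.16 ± 0.26, and with TPR D 1.05 ± 0.38, -0.38 ± 0.21, -0.31 ± 0.20 and 0.08 ± 0.40. In SDHB the TPR-depleted cultures did not overlap the control cultures, in the other 3 genes they did.

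Among paralogs and the highest members of each complex, COX6B1 was at -1.02 ± 0.44 in control, -0.32 ± 0.15 in TPR A and -0.48 ± 0.37 in TPR D cells (SD, n = 3). The testis isoform COX6B2, at 0.25 ± 0.27, 0.23 ± 0.07 and 0.43 ± 0.34, had levels of 0.767 to 2.70 FPKM and passed the test in none. COX7A2L had -1.29 ± 0.11, -1.02 ± 0.27 and -0.95 ± 0.24, a smaller shift than that of COX7A2 (-1.18 ± 0.26, -0.45 ± 0.39 and -0.43 ± 0.17), though the 2 genes were not tested against each other. COX4I1 was at -0.97 ± 0.33, -0.37 ± 0.23 and -0.42 ± 0.27, and NDUFA4 at -0.98 ± 0.16, -0.31 ± 0.42 and -0.36 ± 0.30. NDUFB4 had -1.02 ± 0.15, -0.48 ± 0.41 and -0.44 ± 0.24, and ATP5MF -0.90 ± 0.20, -0.21 ± 0.26 and -0.24 ± 0.37. In each of these 4 genes the control cultures lay below the TPR-depleted ones with no overlap.

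The members are short genes. Their median pre-mRNA length, taken as the median over a gene's protein-coding transcripts, was 8.31 kb, against 22.9 kb for the mRNAs tested, with a median mRNA of 651 nt against 1930.5 nt and 4 exons against 7. Of the 81, 48 had a pre-mRNA under 10 kb, and complex II was the exception, with a median of 36.1 kb. Within the members, a longer pre-mRNA went with a higher N/C ratio in control cells (Spearman's rho = 0.457, Pearson's r = 0.487, over 81 genes that share libraries) and with a smaller N/C change (rho = -0.431 with TPR A and -0.392 with TPR D). The number of exons gave 0.414 for the control N/C ratio and -0.303 and -0.538 for the change with TPR A and TPR D. The members' mean FPKM, which follows their depth, gave 0.244 and 0.251 for the change. Without control replicate 2, pre-mRNA length gave a rho of 0.422 for the control N/C ratio and -0.527 and -0.431 for the change. The number of exons then gave 0.424, -0.465 and -0.651, and the mean FPKM 0.268 and 0.241 for the change. The control N/C ratio is subtracted in the change, so their opposite signs are not separate findings. Genes are not independent replicates, and no p is given.

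The members were also set beside other mRNAs of like length. Among pre-mRNAs under 10 kb, the median N/C ratio in control cells was -1.02 for the 48 members and -0.43 for 3241 other mRNAs, and the median change was 0.65 and 0.28 with TPR A and 0.54 and 0.16 with TPR D. From 10 to 20 kb, the change was 0.45 for 24 members and 0.08 for 2347 other mRNAs with TPR A, and 0.43 and 0.05 with TPR D. Without control replicate 2 the changes of pre-mRNAs under 10 kb were 0.45 and 0.17 with TPR A and 0.36 and 0.06 with TPR D. The 2 longest members, NDUFS4 and NDUFA10, are over 50 kb, where other mRNAs had a median change of -0.23 (TPR A) and -0.17 (TPR D), and they were above 0 with both shRNAs (0.37 and 0.25 with TPR A, 0.45 and 0.13 with TPR D). Without control replicate 2 these values were 0.13 and 0.18, then 0.21 and 0.051, and the medians of the other mRNAs -0.15 and -0.095. From 10 to 20 kb the members' medians were then 0.29 and 0.25.

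**Figure D5:**
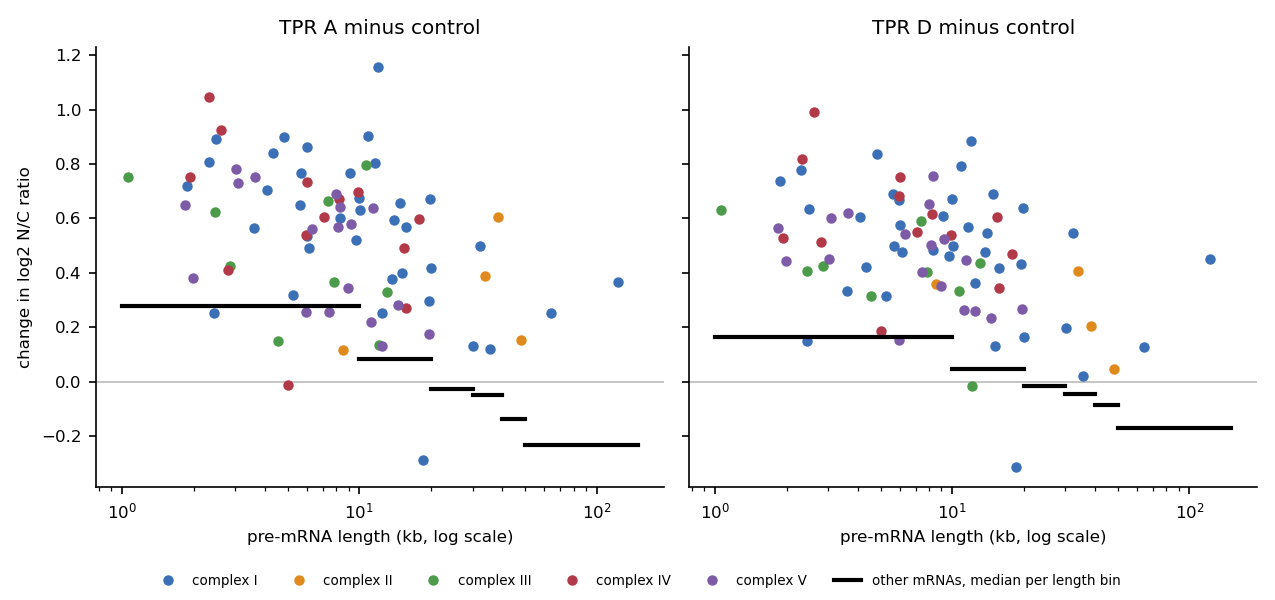
Change in log2 N/C ratio (y axis) of each member against its pre-mRNA length (x axis, kb, log scale) for TPR A (left) and TPR D (right), coloured by complex. Black lines are the median of other mRNAs in each length range. All but 2 members in each panel lie above 0, and most of those under 20 kb lie above the black line of their range (0.28 and 0.08 with TPR A).

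Genes that assemble the complexes or carry electrons between them were read as lists, beside the shares over all genes in control cells of 19.2% lower and 20.2% higher. In control cells, 6 of 17 complex I assembly factors were lower and 2 (NDUFAF7, 0.95 ± 0.22, and NDUFAF1, 0.90 ± 0.29) higher in the nucleus, with a median of -0.49. All 4 complex II assembly factors were lower (median -0.94), 1 of 6 of complex III (UQCC2, -1.57 ± 0.35), 11 of 22 of complex IV (median -0.82) and 1 of 4 of ATP synthase (ATPAF2, -0.82 ± 0.22). In the complex IV list, COX14 (-1.41 ± 0.27) and CMC2 (-1.48 ± 0.34) were among the lower ones, and LRPPRC (1.53 ± 0.21), which stabilises mitochondrial mRNAs, and SCO1 (0.57 ± 0.18), a copper chaperone, were higher. Leaving out control replicate 2, the counts of assembly factors lower were 5, 2, 2, 7 and 1. Among 14 genes for electron carriers and coenzyme Q synthesis, 4 were lower (COQ9, COQ4, COQ6 and ETFB) and none higher, with a median of -0.13. Of 11 regulators, TFB2M (1.13 ± 0.23), a factor of mitochondrial transcription, and GABPA (1.04 ± 0.27), a subunit of NRF2, were higher in the nucleus and ESRRA, a nuclear receptor, lower (-0.74 ± 0.22). Leaving out that culture, 1 carrier or coenzyme Q gene and 0 regulators were lower. The shares of 19.2% and 20.2% are from the fit with all libraries. Those that match the counts without that culture are not given here.

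No gene of these lists passed the test for the N/C change. The medians with TPR A and TPR D were 0.29 and 0.21 for complex I assembly factors, 0.44 and 0.56 for complex II, 0.37 and 0.24 for complex III, 0.22 and 0.30 for complex IV and 0.18 and 0.21 for ATP synthase, 0.24 and 0.20 for carriers and coenzyme Q synthesis, and 0.11 and 0.040 for regulators. Most were smaller without control replicate 2: 0.15 and 0.13 for complex I, 0.34 and 0.43 for complex II, 0.40 and 0.27 for complex III, 0.16 and 0.19 for complex IV, -0.031 and 0.086 for ATP synthase, 0.11 and 0.13 for carriers and -0.011 and 0.013 for regulators. Within single fractions, COX10, which takes part in making the haem A of complex IV, was lower with TPR D in the total (-1.08 ± 0.20, adjusted p = 0.0107), nuclear (-1.37 ± 0.20, adjusted p = 0.0027) and cytoplasmic/ER fraction (-1.59 ± 0.20, adjusted p = 0.000958). With TPR A it was called in no fraction, and its change in the total fraction was -0.0076 ± 0.20. CYCS, the gene of cytochrome c, was lower with TPR A in the cytoplasmic/ER fraction (-1.12 ± 0.26, adjusted p = 0.0446), and without control replicate 2 it did not pass (-0.94, adjusted p = 0.167). No other gene of the lists was called in a single fraction, and both were named after their values were seen.

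The 13 mRNAs of the mitochondrial genome code for the partner subunits of complexes I, III, IV and V. Their summed level, in kFPKM, where k is the usual prefix, was 443 to 739 in control, 442 to 605 in TPR A and 526 to 594 in TPR D cytoplasmic/ER libraries. In the total fraction it was 7.21 to 188 in control (the lowest in the library labelled control replicate 2), 133 to 162 with TPR A and 161 to 210 with TPR D. These mRNAs are not exported from the nucleus, and their level was neither scaled with nor tested against that of the members.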

How the data were processed

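Poly(A)+ RNA of nuclear, cytoplasmic/ER and total fractions was sequenced from 3 cultures for each of 3 shRNAs. The authors quantified reads with Salmon against Gencode v19 protein-coding and lncRNA transcripts (hg19), summed them to genes with tximport, and deposited FPKM per gene. Counts were not used here, so limma was applied in place of a count model. FPKM of 14611 genes with a mean above 1 and outside the mitochondrial genome were divided by median-of-ratios factors (0.954 to 1.06) and taken to log2(FPKM + 0.1), on which scale all fold changes stand and changes of low genes are understated. All 27 libraries in 9 groups entered 1 limma fit (version 3.58.1, R 4.3.3, trended variance), with Benjamini-Hochberg adjustment over all genes and a threshold of 0.05. The test of the N/C change with TPR A was also run on data simulated from the genes' means and spread. It called 8 of 100 genes given a log2 change of 1 and 51 of 100 given a change of 2. Other values were computed in Python 3.11.15.

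Gene coordinates and lengths came from GENCODE 44 on GRCh37, and promoters from RefSeq on GRCh38.p14. Named members were the 6 with the lowest p for the N/C change with both shRNAs, the extremes of the control N/C ratio and the highest FPKM in each complex, paralogs, the SDH genes and the lowest member. Other names are given in lists or were added after their values were seen. The members and lists were chosen with earlier results of these data known, and the role groups and counts of groups without overlap after the values were seen.

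Deviations from the group means went together between the nuclear and the cytoplasmic/ER library of a culture (r = 0.223 to 0.469), so the culture was a block in an alternative fit. Replicate numbers paired control and TPR A in the total fraction (r = 0.137 to 0.324) and the TPR shRNAs with each other in nuclear (0.131 to 0.266) and cytoplasmic/ER libraries (0.398 to 0.597), but not the other sets. Other alternatives changed the scaling, the pseudocount, the minimum FPKM and the groups in the fit, or left out each replicate. The values of 1 member are not reported here by name.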

Additional observations from a re-analysis of the deposited data

Results flagged for a closer look

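With TPR A, the members' median was above the control mean in all 3 nuclear cultures (0.13 to 0.46) and below it in all 3 cytoplasmic/ER cultures (-0.39 to -0.061), and the nuclear minus the cytoplasmic change was 0.51. Against control replicates 1 and 3 alone the values were 0.021 to 0.37 and -0.30 to -0.024. The difference between the fractions' medians was not tested.

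In single members, every culture of the shRNA named showed the same opposite directions against the mean of all 3 control cultures. These members had the lowest p for the N/C change, which is this same quantity, so it is no separate finding. Against control replicates 1 and 3 alone the directions did not hold in all of them. Nuclear FPKM of NDUFA2 in TPR A replicate 3 (46.0) lay below these controls (50.2 and 46.2). That of NDUFA1 in TPR D replicate 3 (49.3) was also below them (the lower at 51.9). With TPR A the nuclear minus the cytoplasmic change was 0.73 for COX7A2, 0.81 for NDUFA2, 0.90 for NDUFA1, 0.92 for COX6A1, 0.90 for NDUFB9 and 1.05 for COX5B. With TPR D it was 0.84 for NDUFA1. Without control replicate 2 these values were 0.59, 0.61, 0.57, 0.60, 0.67 and 0.66, and 0.51 for NDUFA1 with TPR D. For none of these genes did the N/C change pass limma's adjusted test, with an adjusted p of at least 0.987.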

How the results depend on the processing

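The median N/C change of the members stayed above 0 in every alternative run, from 0.38 to 0.68 with TPR A, 0.29 to 0.59 with TPR D and 0.33 to 0.63 with both when 1 replicate was left out, and no alternative called a member. The 53 members called in control cells became 28 without control replicate 2 and 34 with the culture as a block and that replicate left out, and ranged from 28 to 56 when 1 replicate was left out. The 15 called with TPR A became 9 with no minimum FPKM and 25 with the culture block without control replicate 2 (3 to 20 with 1 replicate left out). The 20 called with TPR D became 9 with no minimum and 13 with control and TPR D libraries only (3 to 20). With replicate number as a block, 57, 21 and 23 members were called, and 1 in the cytoplasmic/ER fraction with TPR A, ATP5MC1 (adjusted p = 0.0445). Under upper-quartile scaling the median total change came to 0.009 (TPR A) and 0.027 (TPR D), and it ranged from -0.22 to 0.13 and from -0.40 to 0.14 with 1 replicate left out. The median cytoplasmic change with TPR D ranged from -0.40 to -0.052. The N/C ratio of ATP5F1A in control cells ranged from -0.042 (without control replicate 3) to 0.303. Beyond the samples or genes left out, the cause was not tested. COX6B2 had the fewest estimated reads of the members, 48.1 in its lowest library.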
